A study of Mus musculus with 4 samples.

Results

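Among the H3K79me2 regions of bone marrow-derived dendritic cells (BMDCs), a small class is broken into several narrow blocks. A region belongs to this class if its authors' gapped list gives it 2 or more blocks of at least 2 bp. By this rule 317 of 11926 regions of the PBS library (2.66%) and 229 of 9805 regions of the lysine library (2.34%) were members, 546 in all. The block numbers and lengths chose the members, so they are given as a description. The BMDCs, antigen-presenting cells grown from the bone marrow of C57BL/6J mice, had received either PBS, for which no time is stated, or lysine at 18 mM for 6 h. All cells were kept in RPMI medium with fetal bovine serum, and the number of mice behind a library is not stated. Chromatin was fixed with formaldehyde, and 1 H3K79me2 library and 1 input library were made for each treatment. The inputs were not analysed here. With 1 library per treatment there was no spread between replicates, so no test was made and every difference below compares 2 libraries. No list states how many reads it rests on, so the depth behind each value is unknown. Intervals of shares are 95% Clopper-Pearson intervals that cover counting error only. Members are not independent samples of a treatment. At loci that are hard to map (the mitochondrial genome, unplaced scaffolds, the first 3.1 Mb of chromosome 9 and the ribosomal RNA locus of chromosome 17) lay 2 PBS and 6 lysine members, and without them 315 and 223 remained.

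H3K79me2 is placed on the globular part of histone H3 by the methyltransferase Dot1l, which travels with complexes that help RNA polymerase II to elongate. The mark is known to lie over the first part of transcribed genes, beginning close to the transcription start. A broad peak caller joins stretches of enrichment at a permissive threshold into a region, and then marks inside it the stretches that pass a stricter threshold. These stretches are the blocks. A region with 2 blocks therefore holds a pair of stretches that pass the stricter threshold. The stretch between them is here called a gap, and the signal inside gaps was not measured.

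The sequences before the start sites of 5 named genes are shown because these start sites lay inside blocks, while the neighbouring blocks of the same region lay beyond the printed stretch. They were chosen from the named regions after their values were seen, and they were taken from RefSeq on GRCm38.p6. Each is the 250 bases before the start site, 5′ to 3′ on the strand of the gene. Capitals mark the TATA box letters TATAAA, the CCAAT box letters CCAAT and the GC box letters GGGCGG, searched on both strands. A match is a description of the letters and not a site of binding. Zfp36l1 lies on the minus strand (chr12:80113014-80113263), and Spop (chr11:95413833-95414082), Necap1 (chr6:122874307-122874556), Per1 (chr11:69098699-69098948 and chr11:69099902-69100151) and Nlrp3 (chr11:59541319-59541568 and chr11:59542436-59542685) lie on the plus strand.
Zfp36l1: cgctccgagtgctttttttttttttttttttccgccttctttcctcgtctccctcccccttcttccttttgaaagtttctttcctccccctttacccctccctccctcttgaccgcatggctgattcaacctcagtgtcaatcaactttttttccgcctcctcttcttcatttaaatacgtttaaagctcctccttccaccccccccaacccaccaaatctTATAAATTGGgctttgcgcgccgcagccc
Spop: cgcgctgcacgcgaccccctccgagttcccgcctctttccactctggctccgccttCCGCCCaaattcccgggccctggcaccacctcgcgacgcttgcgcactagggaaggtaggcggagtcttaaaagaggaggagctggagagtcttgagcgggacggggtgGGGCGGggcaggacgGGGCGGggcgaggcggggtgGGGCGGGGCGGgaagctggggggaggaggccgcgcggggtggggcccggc
Necap1: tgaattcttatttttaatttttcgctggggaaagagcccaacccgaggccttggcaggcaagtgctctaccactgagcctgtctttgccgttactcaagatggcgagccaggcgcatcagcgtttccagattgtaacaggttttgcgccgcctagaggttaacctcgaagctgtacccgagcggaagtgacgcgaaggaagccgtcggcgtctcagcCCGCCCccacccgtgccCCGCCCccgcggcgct
Per1, first start site: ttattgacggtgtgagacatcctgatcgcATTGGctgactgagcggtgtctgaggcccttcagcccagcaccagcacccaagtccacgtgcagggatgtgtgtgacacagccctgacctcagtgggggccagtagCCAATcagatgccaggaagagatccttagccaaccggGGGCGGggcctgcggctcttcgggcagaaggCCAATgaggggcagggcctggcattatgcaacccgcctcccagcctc
Per1, second start site: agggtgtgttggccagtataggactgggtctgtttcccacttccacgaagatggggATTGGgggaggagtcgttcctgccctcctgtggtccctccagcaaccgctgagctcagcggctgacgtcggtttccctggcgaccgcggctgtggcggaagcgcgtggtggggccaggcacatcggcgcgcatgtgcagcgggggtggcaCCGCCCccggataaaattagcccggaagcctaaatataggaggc
Nlrp3, first start site: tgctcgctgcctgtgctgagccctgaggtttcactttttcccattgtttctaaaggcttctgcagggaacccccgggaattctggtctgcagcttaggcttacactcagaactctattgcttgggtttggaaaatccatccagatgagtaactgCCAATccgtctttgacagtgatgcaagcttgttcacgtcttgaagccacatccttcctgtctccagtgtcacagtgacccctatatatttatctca
Nlrp3, second start site: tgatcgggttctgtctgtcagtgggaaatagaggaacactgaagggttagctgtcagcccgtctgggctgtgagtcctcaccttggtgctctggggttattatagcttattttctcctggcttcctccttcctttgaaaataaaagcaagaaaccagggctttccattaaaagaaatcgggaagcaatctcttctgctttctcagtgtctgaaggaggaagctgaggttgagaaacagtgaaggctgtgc

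The Spop stretch held 27 CpG and 5 GC boxes, and the Necap1 stretch held 22 CpG and 2 GC boxes. The Zfp36l1 stretch held 10 CpG, with a TATA box that overlaps a CCAAT box of the other strand. At Per1 the first stretch held 9 CpG with 3 CCAAT boxes and the second held 19 CpG. Both Nlrp3 stretches were poor in CpG, with 4 and 3. Blocks thus lay over start sites both rich and poor in CpG.

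Start sites in members resembled, in CpG and GC box content, the start sites in other called regions. Their 300 bases, 250 before and 50 from the start on, had a median of 8.33 CpG per 100 bases in the 275 start sites of PBS members and 8.83 in the 192 of lysine members. Start sites in regions of 1 block had a median of 8 in each list, start sites in no region had 1.67 in each list, and the 32851 start sites as a whole had 2.33. A GC box occurred in 70.2% of the PBS and 72.9% of the lysine member start sites, against 71.1% and 72.1% at regions of 1 block and 35.7% over all start sites. The CCAAT box occurred in 43.6% and 46.9%, against 48.8% and 49.3% at regions of 1 block and 37.4% over all. TATA box letters were in 8.36% and 6.25%, compared with 5.68% and 5.34% at regions of 1 block and 13.6% over all start sites. For the letters GAGGAA, which the myeloid factor PU.1 can bind, the shares were 26.2% and 27.6%, against 25.5% and 25.1% at regions of 1 block and 28.3% over all. The AP-1 letters TGANTCA stood in 4% and 7.81%, against 4.30% and 4.07% at regions of 1 block and 7.81% over all. The E-box letters CACGTG stood in 12.7% and 14.6%, against 12.3% and 13.1% at regions of 1 block and 7.15% over all.

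Nearly all members had exactly 2 blocks. In PBS 306 members had 2 blocks, 10 had 3 and 1 had 4. In lysine 222 had 2 blocks and 7 had 3. Members with 3 or more blocks made up 3.47% (1.74 to 6.12) of the PBS members and 3.06% (1.24 to 6.20) of the lysine members. The PBS members held 646 blocks over 318 kb and the lysine members 465 blocks over 221 kb.

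A block of a member was about as long as the block of an ordinary region. Member blocks had a median of 437.5 bp in PBS (quartiles 355 and 562) and 415 bp in lysine (342 and 530), compared with 435 and 428 bp in regions of 1 block. The shortest block was 275 bp in PBS and 273 bp in lysine, so the minimum of 2 bp in the rule removed nothing but the 1 bp marks of region ends. In 2-block members the longer block had a median of 526.5 bp in PBS and 496.5 bp in lysine. The shorter had a median of 375.5 and 356.5 bp. The longer block was at least 1.5 times the shorter in 110 of 306 PBS members and in 77 of 222 lysine members. Blocks covered a median of 58.8% of a member in PBS and 54.5% in lysine.

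Gaps were slightly longer in the lysine list. Their median was 619 bp in PBS (quartiles 446 and 865, n = 329) and 697.5 bp in lysine (475 and 880, n = 236). Neighbouring block centres lay a median of 1105.5 bp apart in PBS and 1155 bp apart in lysine. The gaps had a sharp upper edge at 4 times the shortest block of the list, which is 1100 bp in PBS and 1092 bp in lysine. At or under this length were 316 of 329 PBS gaps and 223 of 236 lysine gaps. In the 200 bp below the edge lay 60 PBS and 41 lysine gaps, and in the 200 bp above it 5 and 2. The shortest gap was 286 bp in PBS and 275 bp in lysine. The range of spacings that a member can show is thus bounded in these lists, and no source used here gives the settings of the caller.

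**Figure D1:**
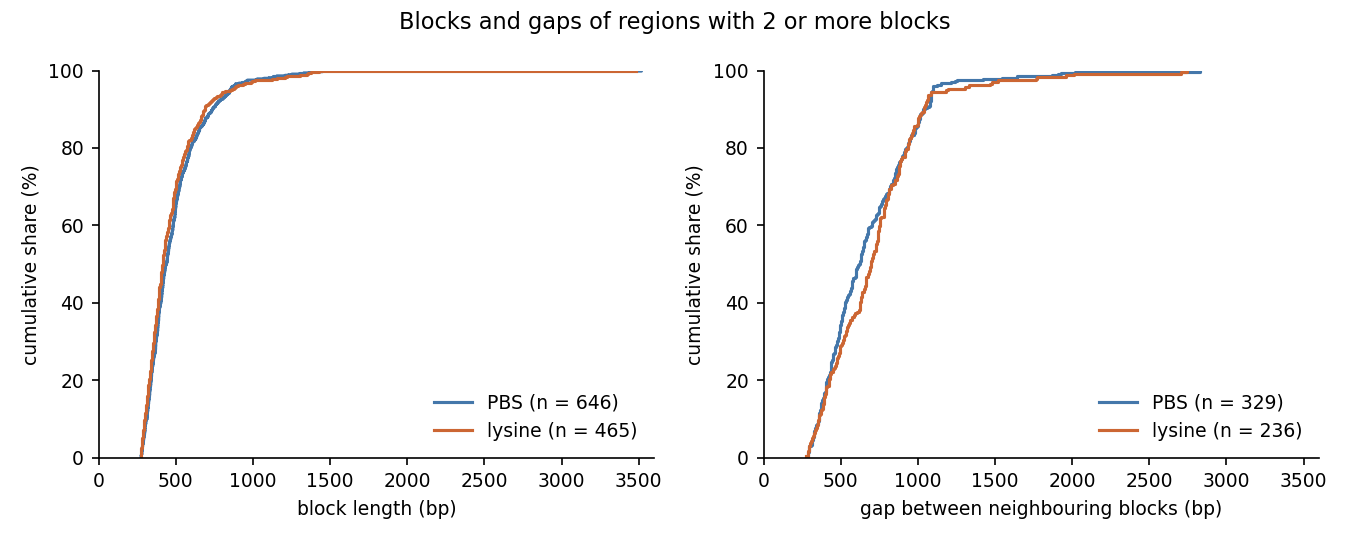
Cumulative share (%) of block lengths (left, bp) and of gaps between neighbouring blocks (right, bp) in members of the PBS and lysine lists. Blocks have nearly the same lengths in both lists, and gaps start at 286 bp (PBS) and 275 bp (lysine), with few beyond 1100 and 1092 bp.

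Members were long regions of ordinary strength, and their length follows in part from the rule. A member must hold at least 2 blocks and the gap between them, which a region of 1 block need not. Their median length was 1653 bp in PBS (961 to 5482) and 1663 bp in lysine (877 to 5435), compared with 446 and 439 bp for regions of 1 block. They made up 26.6% of the PBS regions of 1 kb or more and 27.1% of the lysine regions of that length. The authors' fold enrichment over local background, averaged over a region, had a median of 4.67 in PBS members and 4.62 in lysine members, and of 4.52 and 4.48 over each whole list. The authors' −log10 q, a measure of significance, had a median of 4.39 and 4.22, against 4.03 and 3.85 over each list.

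Just outside the rule stood regions with 1 block and a 1 bp mark at an end that no block reached. There were 755 of these in PBS and 550 in lysine. Their median length was 1274 bp in PBS and 1200.5 bp in lysine, their block had a median of 456 and 437 bp, and their fold was 4.37 and 4.27. Members at the inner edge of the rule, those with 2 blocks, included regions as short as the 961 and 877 bp given above.

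The autosomes all held members, and the X chromosome held none. On the X, 0 of 101 PBS regions and 0 of 81 lysine regions were members, which allows shares of up to 2.97% and 3.70% by the limit of 3 counts that a count of 0 allows (Clopper-Pearson upper limits 3.59% and 4.45%), both above the shares over the whole lists, so a lack of members on the X was not detectable at these numbers. The largest number lay on chromosome 11, with 31 of 930 PBS regions (3.33%, 2.28 to 4.70) and 37 of 763 lysine regions (4.85%, 3.44 to 6.62). Chromosome 11 had more members in lysine than in PBS, while chromosome 17 had 22 in PBS and 10 in lysine.

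Members at gene ends lay nearly all at the 5′ end where the strand was known, and how many counted as at an end depended on the window. The midpoint was within 1 kb of an end of a protein-coding gene in 171 of 317 PBS members (53.9%, 48.3 to 59.5) and in 122 of 229 lysine members (53.3%, 46.6 to 59.9). With a window of 500 bp the shares were 27.8% and 28.8%. With 1 kb, elsewhere inside genes lay 85 and 58 members, and between genes 61 and 49. Regions of 1 block were at gene ends in 43.1% of cases in PBS and 49.2% in lysine. Among regions of 1 block that reached 1 kb the shares were 55.2% and 60.5%, so length moved together with this difference. Of the members at gene ends, 147 of 171 in PBS and 103 of 122 in lysine lay near the 5′ end of a gene with known strand. Near a 3′ end alone lay 2 in each list, and the other members had no gene with known strand at that place. Of the members between genes, 19 of 61 in PBS and 16 of 49 in lysine lay on a long non-coding gene, and 37 and 31 lay on no gene of the table.

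The start sites inside members lay mostly under blocks and seldom in gaps. At least 1 RefSeq start site, of a coding or long non-coding gene, lay in 181 of 317 PBS members (57.1%, 51.4 to 62.6) and in 134 of 229 lysine members (58.5%, 51.8 to 65.0). In PBS 238 of 275 start sites lay in a block (86.5%, 81.9 to 90.3), 35 in a gap and 2 outside the outer blocks. In lysine 167 of 192 lay in a block (87.0%, 81.4 to 91.4) and 25 in a gap. Blocks covered 56.7% of the bases of PBS members and 53.9% of those of lysine members. Regions of 1 block and at least 1 kb showed the same kind of excess, with 80.6% of start sites under 47.1% of the bases in PBS and 79.8% under 50.1% in lysine.

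A typical member at a start site had 1 block centred just before the start and a second block about 1 kb away, on either side. This was seen in the members with 2 blocks and a single start site, 105 in PBS and 82 in lysine. The start site lay in a block in 91 of the 105 (86.7%, 78.6 to 92.5) and in 75 of the 82 (91.5%, 83.2 to 96.5). The other block lay downstream in 50 PBS and 41 lysine members and upstream in 41 and 34. With the other block downstream, the block over the start site was centred at a median of -65.8 bp from it in PBS and -85.0 bp in lysine. The downstream block was centred at 1029.5 bp (quartiles 845 and 1229) in PBS and 1016.5 bp (826.5 and 1263.5) in lysine. With the other block upstream, the centres were at -60.5 and -22.5 bp for the block over the start site, and at -1137.5 bp (-1409.5 and -971.5) and -1177.75 bp (-1433.5 and -1028.88) for the upstream one. The single block of ordinary regions was centred at a median of -51.5 bp in PBS (n = 3028) and -53.5 bp in lysine (n = 2865). The distance of the second block is bounded by the edge of the gap lengths given above. It was near the median spacing of block centres over all members, with or without a start site (1105.5 bp in PBS, 1155 bp in lysine).

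**Figure D2:**
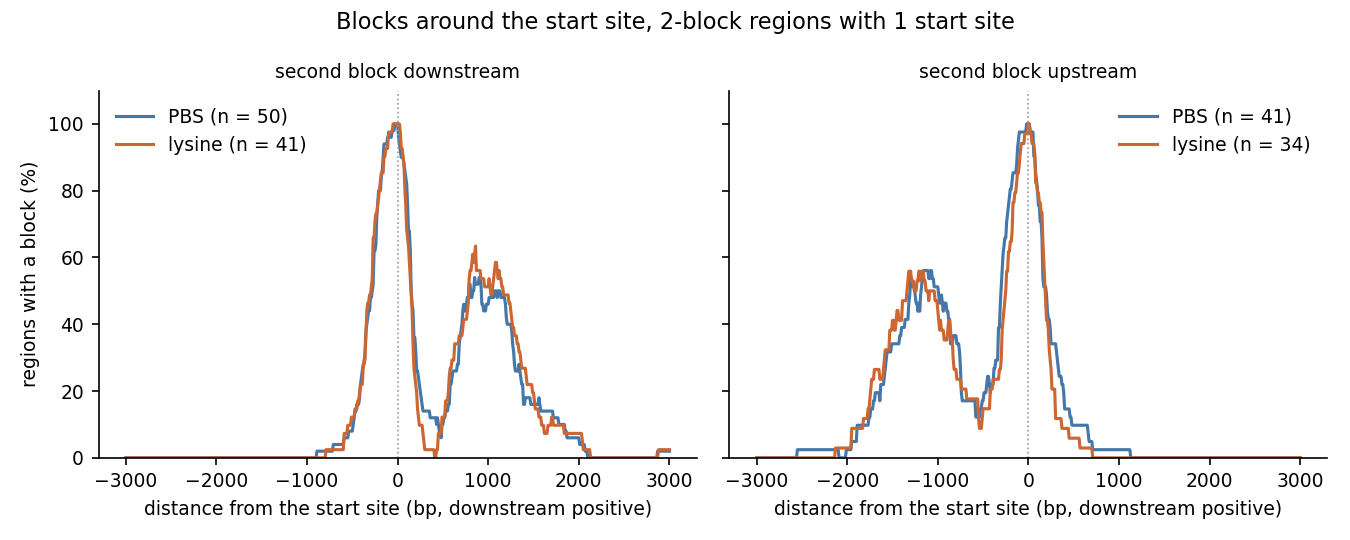
Share (%) of 2-block members with a single start site that have a block at each distance (bp) from it, with downstream positive, for members whose other block lies downstream (left) or upstream (right), in the PBS and lysine lists. The narrow peak at 0 is the block that defines the alignment, and the broader peak near 1 kb on one side is the second block, in the same place in both lists.

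The block over the start site was the longer of the pair in most PBS members and in fewer lysine members, with intervals that overlapped. With the second block downstream it was the longer in 30 of 50 PBS members (45.2% to 73.6%) and 18 of 41 lysine members (28.5% to 60.3%). With the second block upstream it was the longer in 28 of 41 (51.9% to 81.9%) and 14 of 34 (24.6% to 59.3%). Its median length was 485 bp (PBS) and 424 bp (lysine) in the first arrangement and 484 and 419.5 bp in the second. The second blocks had medians of 402 and 426 bp downstream and of 447 and 443.5 bp upstream.

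Some members held start sites of exactly 2 genes, on opposite strands. There were 43 in PBS and 27 in lysine, some of them with more than 1 start site for a gene. The genes faced away from each other in 33 and 23 of these. Only 1 block held any start site in 29 PBS and 15 lysine members, a count that does not require start sites of both genes in that block. There the median start sites of the genes were a median of 262 and 110 bp apart. In the other 14 and 12 members 2 blocks held start sites, and the distance was a median of 983 and 1055.25 bp.

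At the place of a member the other list had a region more often than at the place of other regions, with 1 block as the commonest state for PBS members and 1 block or 2 or more about equally common for lysine members. Of the PBS members 277 of 317 (87.4%, 83.2 to 90.8) were overlapped by a lysine region, against 61.9% of all PBS regions. Of the lysine members 219 of 229 (95.6%, 92.1 to 97.9) were overlapped by a PBS region, against 75.3% of all lysine regions. In the counts that follow, all blocks of the overlapping regions are counted, also any that lie beyond the ends of the member. At the place of the PBS members, lysine had no region in 40, a region without a block in 5, 1 block in 163 and 2 or more blocks in 109. For the lysine members the PBS list had no region in 10, a region without a block in 7, 1 block in 104 and 2 or more in 108. Over all regions, 2.05% of the PBS regions faced 2 or more lysine blocks and 3.07% of the lysine regions faced 2 or more PBS blocks. Among regions of 1 block and at least 1 kb these shares were 9.45% and 16.3%, compared with 34.4% (29.2 to 39.9) and 47.2% (40.6 to 53.8) of the members. These regions of 1 block were more often short, with 528 of 741 in PBS and 382 of 514 in lysine at 1000 to 1500 bp. Of the members, 119 of 317 and 76 of 229 had that length. The shares facing 2 or more blocks were not compared within classes of length.

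**Figure D3:**
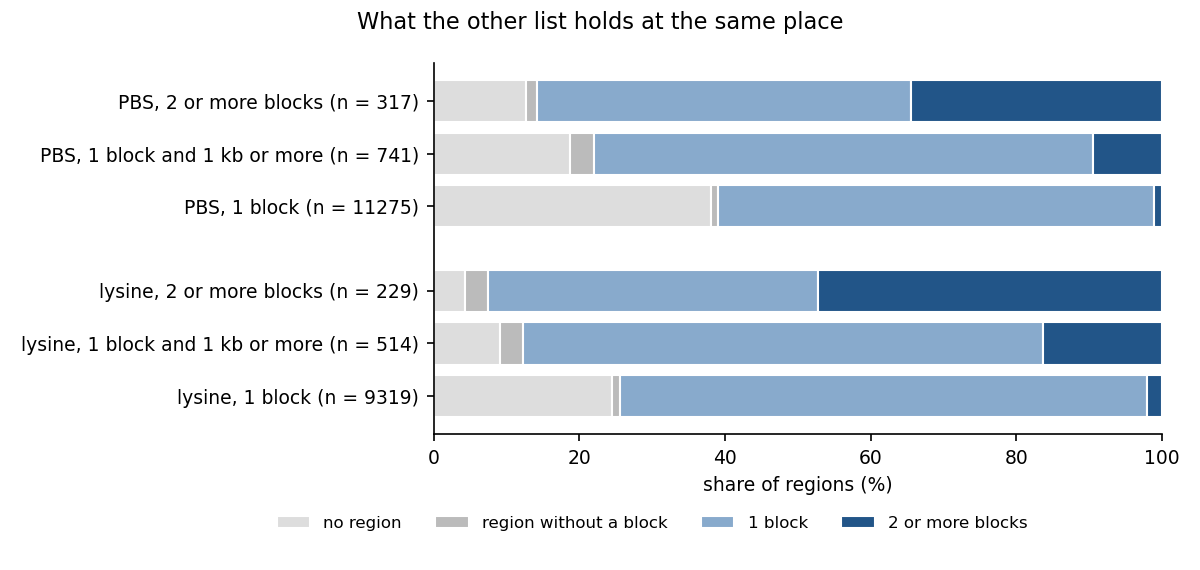
Share (%) of regions for which the other list holds no region, a region without a block, 1 block or 2 or more blocks at the same place, for members, for regions of 1 block and at least 1 kb, and for all regions of 1 block, in each list. The darkest part, 2 or more blocks opposite, takes 34.4% of the PBS and 47.2% of the lysine members and a smaller part of the other classes. All blocks of the overlapping regions are counted, and the classes were not matched for length.

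The higher share of members with a partner went along with their length. Among PBS regions of 1000 to 1500 bp, 94 of 119 members (79%) and 416 of 528 regions of 1 block (78.8%) had a lysine region opposite. From 1500 to 2000 bp the numbers were 108 of 119 (90.8%) and 160 of 182 (87.9%), and from 2000 to 3000 bp 60 of 62 (96.8%) and 23 of 28 (82.1%). In the lysine list they were 75 of 76 (98.7%) and 344 of 382 (90.1%) in the shortest class, 87 of 93 (93.5%) and 105 of 113 (92.9%) in the next, and 44 of 45 (97.8%) and 17 of 18 (94.4%) in the longest. Within a length class members and regions of 1 block thus had shares whose intervals overlapped, apart from the shortest lysine class, where 92.89 to 99.97 stood just above 86.60 to 92.86. Members without a partner had a lower fold in their own list, with a median fold of 4.18 in PBS and 4.04 in lysine, against 4.86 and 4.82 for members facing 2 or more blocks.

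PBS members had a partner about as often at gene ends, inside genes and between them, with overlapping intervals. A lysine region overlapped 155 of 171 PBS members at gene ends (90.6%, 85.3 to 94.6), 70 of 85 inside genes (82.4%, 72.6 to 89.8) and 52 of 61 between genes (85.2%, 73.8 to 93.0). Over all PBS regions the shares were 78.1%, 49.7% and 49.8%. These are mostly shorter regions, and shares by position were not matched for length.

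Counted block by block, members were no more often matched than other regions. Of the 646 blocks of PBS members 393 (60.8%, 57.0 to 64.6) were overlapped by a lysine block, against 60.5% of all PBS blocks. In lysine it was 325 of 465 (69.9%, 65.5 to 74.0), against 73.6% of all lysine blocks. Of the 306 PBS members with 2 blocks, 113 had both matched, 148 had 1 and 45 had none. Of the 222 in lysine, 106 had both matched, 99 had 1 and 17 had none. Where the other list had a single block, it overlapped 1 of the pair in 144 of 160 PBS cases and 96 of 104 lysine cases, and it spanned both in 15 and 7.

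The block that was matched tended to be the longer one, and the one over the start site. In PBS the longer block was matched in 223 of 306 members (72.9%, 67.5 to 77.8) and the shorter in 151 (49.3%, 43.6 to 55.1). In lysine it was 175 of 221 members with blocks of unequal length (79.2%, 73.2 to 84.3) and 134 (60.6%, 53.9 to 67.1). In members with 1 start site, the block over it was matched in 70 of 91 PBS members (76.9%, 66.9 to 85.1) and the other block in 52 (57.1%, 46.3 to 67.5). In lysine the numbers were 63 of 75 (84.0%, 73.7 to 91.4) and 45 (60.0%, 48.0 to 71.1). Downstream second blocks were matched in 25 of 50 PBS and 22 of 41 lysine members, and upstream ones in 27 of 41 and 23 of 34. An overlap of 1 bp counts as a match, so the rule of matching itself favours the longer block. The parts played by block length and by the start site were not separated.

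**Figure D4:**
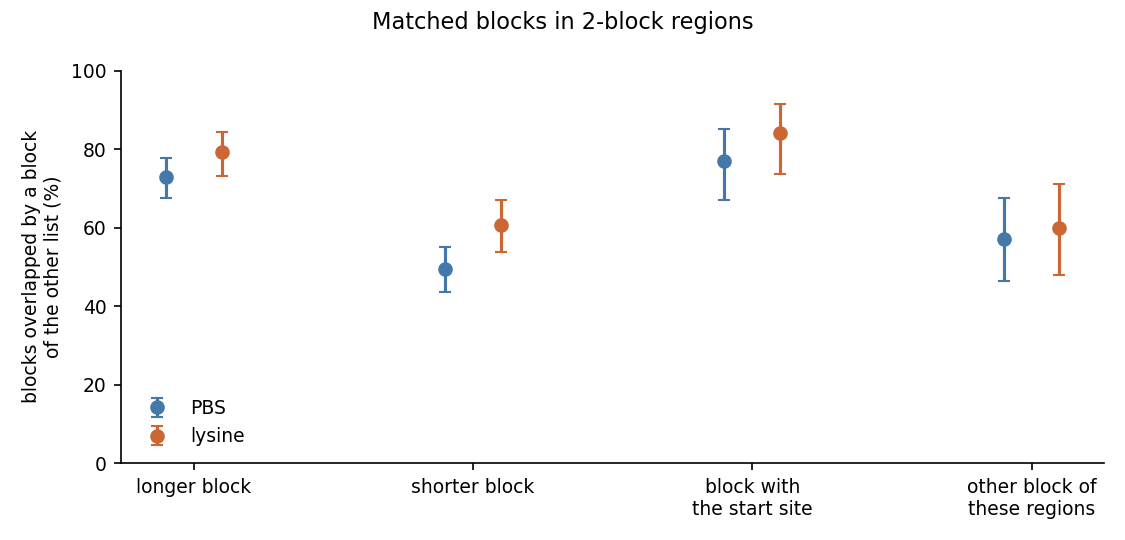
Share (%) of blocks of 2-block members that a block of the other list overlaps, with 95% Clopper-Pearson intervals, for the longer and shorter block and for the block over a single start site and the other block of the same members. In both lists the longer block and the block over the start site lie above their counterpart.

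Where both lists had a member, the gaps lay at nearly the same place. Such places were chosen for having 2 or more blocks in both lists, so overlapping gaps follow in part from this choice. There were 99 pairs of overlapping members, which is 31.2% of the PBS members and 43.2% of the lysine members. In 96 of the 99 pairs a gap of one list overlapped a gap of the other. In the 90 pairs with 2 blocks on each side, both PBS blocks were matched in 86. The gap centres of these 90 lay a median of 61.5 bp apart (quartiles 30.125 and 97.5), against a median gap of 661.5 bp in PBS and 712 bp in lysine. The gap was longer in lysine in 45 of the 90, and the difference of lysine from PBS had a median of -1.5 bp (quartiles -108 and 111). The median gap was longer in lysine over these pairs too, though pair by pair neither list had the longer gap.

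Among the places with the most blocks, the number of PBS blocks matched by a lysine block ran from all 3 at Zfp36l1 to 0 at Malat1. Zfp36l1, which encodes an RNA-binding protein that speeds the decay of messenger RNAs, had 3 blocks in each list (chromosome 12, 80112858 to 80115821 in PBS and 80112802 to 80115765 in lysine). The lengths were 576, 283 and 587 bp in PBS and 601, 483 and 532 bp in lysine. The first lay over the start site printed above, from 420 bp before it to 155 bp after it in PBS. The other PBS blocks were centred at -1448 and -2515 bp from it, and the lysine ones at -1481 and -2486.5 bp. Gm52006 lies at the same place. At Spop, the substrate adaptor of a cullin-3 ubiquitin ligase (chromosome 11, 95413593 to 95416235), PBS had blocks of 627, 506 and 394 bp and lysine blocks of 568 and 736 bp. The first block of each lay over the start site and the second was centred 763.5 bp downstream in PBS and 992.5 bp downstream in lysine. The PBS block centred at 1955.5 bp had no lysine block opposite.

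Necap1, an accessory factor of clathrin-coated vesicles (chromosome 6), had the larger number of blocks in lysine. Its lysine region, 122871584 to 122874731, held blocks of 292, 387 and 442 bp, and its PBS region, 122872841 to 122874788, held 482 and 451 bp. The last block of each lay over the start site, and the block centred at -2827.5 bp from it was in lysine alone. Srgn, which encodes the proteoglycan serglycin of secretory granules (chromosome 10, 62506065 to 62509632), had blocks of 631, 421 and 525 bp in PBS and of 486 and 317 bp in lysine. Ap3m2, a subunit of the AP-3 adaptor of endosomal traffic (chromosome 8), had blocks of 482, 541 and 306 bp in PBS and 535 and 457 bp in lysine, of which 1 PBS block was matched. In the mucin gene Muc3 (chromosome 5) each list had 3 blocks, 389, 604 and 456 bp in PBS and 1153, 332 and 458 bp in lysine, and 2 of the 3 PBS blocks were matched.

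The region with the most blocks of all lay at Junb, a subunit of the AP-1 transcription factor, and Prdx2, a peroxiredoxin. It ran from 84975682 to 84980148 on chromosome 8 in PBS, with 4 blocks of 330, 378, 302 and 521 bp. In lysine the same stretch was called as 2 regions, with 1 block of 399 bp and a pair of 415 and 485 bp. Of the 4 PBS blocks 3 were matched. The Junb region was therefore a member in both lists, but joined over 4467 bp in PBS and over 1589 bp in lysine.

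**Figure D5:**
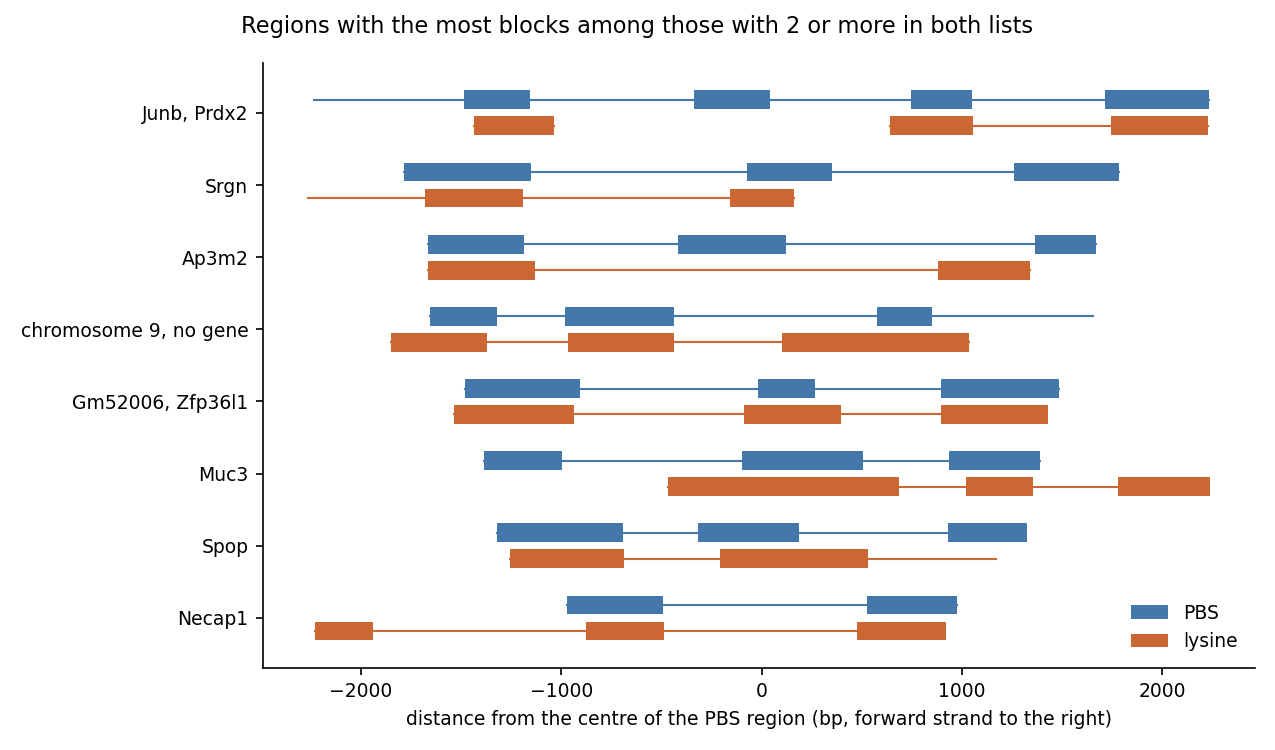
Maps of the 8 places with the most blocks among those where both lists have 2 or more, drawn to scale as distance (bp) from the centre of the PBS region, with regions as lines and blocks as bars. PBS and lysine blocks lie over each other at most places, and each of these places except Zfp36l1 and chromosome 9 has a block with no counterpart in the other list.

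Several long PBS members faced a single lysine block. Nlrp3, the sensor of an inflammasome (chromosome 11, 59540243 to 59543657), had PBS blocks of 462, 293 and 319 bp. Its first and second blocks lay over the 2 start sites printed above, centred at -13.5 and 102 bp from them. In lysine a region of 1627 bp held 1 block of 555 bp, over the first start site. The second start site was thus under a PBS block but not under a lysine region. Il3ra, which encodes a chain of the receptor for interleukin-3 (chromosome 14, 14351540 to 14354624), had PBS blocks of 415, 854 and 477 bp and 1 lysine block of 775 bp. A second PBS member on Il3ra, 4457 bp long, had blocks of 933 and 692 bp and faced 2 lysine regions with 1 block each. At Nsd3, a histone H3K36 methyltransferase (chromosome 8), 3 PBS blocks of 502, 339 and 419 bp faced a lysine block of 328 bp. Sqstm1, the autophagy receptor p62 (chromosome 11, 50210165 to 50213375), had PBS blocks of 881 and 460 bp with a gap of 1870 bp, and 1 lysine block of 523 bp. Rchy1, a ubiquitin ligase (chromosome 5), had PBS blocks of 514 and 1131 bp and a lysine block of 879 bp, and Gm34606, a non-coding gene of chromosome 17, had 526 and 458 bp against 440 bp. The −log10 q was 2.88 at the Il3ra region with 3 blocks and 2.94 at Nsd3, under the PBS list median of 4.03. It was 4.40 at Sqstm1, 4.95 at Nlrp3, 5.29 at Rchy1 and 6.50 at Gm34606.

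The opposite pattern, several lysine blocks against 1 PBS block, held for 104 of 229 lysine members (45.4%, 38.8 to 52.1). Several PBS blocks faced 1 lysine block in 163 of 317 PBS members (51.4%, 45.8 to 57.0), with overlapping intervals. Ier2, an immediate early gene (chromosome 8, 84661448 to 84664855), had lysine blocks of 478 and 464 bp, against 1 PBS block of 510 bp in a region of 4758 bp. Kansl1, a subunit of the NSL histone acetyltransferase complex (chromosome 11, 104439692 to 104443061), had lysine blocks of 296 and 332 bp at the ends of the region, with a gap of 2742 bp. The PBS block of 418 bp there overlapped neither of them. At Lpxn, the adaptor leupaxin, and Zfp91 (chromosome 19), lysine blocks of 328 and 1377 bp faced a PBS block of 1337 bp. The other 3 of the 6 named places were at hard-to-map loci, on the mitochondrial genome at ND1, ND2 and COX1, and on chromosome 9 at 3022306 to 3025873 and 3035017 to 3038191, outside any gene. Both lists had a further member on chromosome 9 near these, with 3 blocks in each (331, 544 and 277 bp in PBS, 479, 526 and 935 bp in lysine). Per1, a clock gene (chromosome 11, 69097052 to 69100214), had 3 lysine blocks of 640, 328 and 343 bp, of which the last 2 lay over the 2 start sites printed above. In PBS 2 regions with 1 block each faced it, and the PBS block of 474 bp lay over the first of these start sites.

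Members with no region opposite numbered 40 in PBS and 10 in lysine, as given above. In PBS the most extended was on the Malat1 gene, whose long RNA stays in the nucleus without being translated (chromosome 19, 5796384 to 5801243), with blocks of 715, 288 and 1450 bp. The next had 2 blocks each and lay outside coding genes on chromosome 11 (2080 bp), on the sorting nexin gene Snx10 (2072 bp), on Nadk, an NAD kinase (1960 bp), on the chondroitin sulfotransferase gene Chst11 (1935 bp) and on Arhgap22, a GTPase-activating protein (1906 bp). In lysine the first was on Tspoap1 (chromosome 11, 87757415 to 87759820), with blocks of 275, 285 and 285 bp. A region of chromosome 6 outside coding genes (1800 bp), the phosphatase gene Ptpn3 (1784 bp), Kctd12 (1771 bp), the calcium-binding protein gene Efhd2 (1752 bp) and a region of chromosome 11 outside coding genes (1586 bp) followed. Their folds were 3.78 to 4.90 in PBS and 3.65 to 4.87 in lysine. Where no region was called, the mark may still be present at a level under the threshold. The last 2 named regions with 3 lysine blocks or the greatest length were Tnrc6b, a factor of microRNA silencing (374, 301 and 571 bp, facing 2 PBS blocks of 458 and 316 bp), and the non-coding gene AY036118 with Rn18s-rs5. Over the latter, blocks of 3518 and 1304 bp in PBS and of 3486 and 1308 bp in lysine had folds of 2.15 and 2.27.

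Members were found at 321 protein-coding genes in PBS (1.47% of 21900) and at 222 in lysine (1.01%), counting genes within 1 kb of a member. Of the genes with any region they were 4.09% and 3.06%. A member in both lists was found at 104 genes, which is 32.4% of the PBS and 46.8% of the lysine genes. The gene lists with the largest shares of genes holding a member were those of splicing and RNA-binding proteins, immediate early genes and long non-coding genes. In the last of these, AY036118 and Rn18s-rs5 were both counted for 1 shared region at the hard-to-map ribosomal RNA locus. The place of that list among the largest shares rests in part on this region. Of 52 splicing and RNA-binding genes 8 had a PBS member and 6 a lysine member, and 45 and 49 had any region. Hnrnpl, Hnrnpu, Hnrnph1, Hnrnpf and Hnrnpdl, which encode nuclear RNA-binding proteins, had a member in both lists. Hnrnpl had blocks of 370 and 1330 bp in PBS and 464 and 1218 bp in lysine, and Hnrnpu had 409 and 393 bp in PBS and 523 and 292 bp in lysine. Hnrnpul1, Sfpq and Son had one in PBS alone, with 1 lysine block opposite each, and Hnrnpa2b1 in lysine alone, with 1 PBS block opposite.

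Of 35 immediate early and Kruppel-like factor genes 5 had a PBS member and 8 a lysine member, while 30 and 31 had any region. Junb, Zfp36l1 and the phosphatase gene Dusp6 had one in both lists. The PBS list added Jund, with blocks of 1029 and 719 bp, and Klf10, with 765 and 529 bp. The lysine list added Ier2, Per1, Jun (556 and 345 bp), Klf6 (553 and 494 bp) and Klf13 (277 and 879 bp). Klf10 faced 2 lysine blocks in separate regions, and Klf6 and Klf13 faced 2 PBS blocks in separate regions.

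In the remaining lists the counts were small, so their genes are named after their values were seen. The counts are to be read beside the 1.47% (PBS) and 1.01% (lysine) of all protein-coding genes. Of protein-coding genes with any region, 4.09% (PBS) and 3.06% (lysine) had a member. Most genes of these lists had a region, so the latter shares are the nearer base. Of 49 chromatin modifier genes 4 had a member in each list (8.16%), and 37 and 34 had any region. Kdm6b, an H3K27 demethylase, had blocks of 1365 and 520 bp in PBS and of 1427 and 1324 bp in lysine, and a second lysine member of 418 and 633 bp. Brd2, a bromodomain protein that shares its member with H2-DMa, also had one in both, Nsd3 had one in PBS alone, and Asxl2 and Kansl1 in lysine alone. Of 35 genes of H3K79 methylation and elongation 3 had a PBS member and 2 a lysine member. Aff1, a scaffold of the super elongation complex, had 528 and 412 bp in PBS and 331 and 318 bp in lysine, Ell and Eaf1 had one in PBS alone and Polr2a in lysine alone, and Dot1l had none. Of 35 haematopoietic transcription factor genes 3 had one in each list, Nfe2l2 in both, Fli1 and Runx2 in PBS, and Stat3 and Meis1 in lysine. Of 50 ribosomal protein and translation factor genes 3 had one in each list. Both lists had one at Pabpc1, the poly(A)-binding protein gene, and at the RNA helicase gene Eif4a1 (PBS 711 and 495 bp, lysine 460 and 675 bp), with Eif5a in PBS alone and Eef1a1 in lysine alone.

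Of 45 genes of amino acid transport and sensing 2 had a PBS member and 3 a lysine member. Ddit3, a transcription factor of the stress response, had blocks of 1156 and 609 bp in PBS and 798 and 581 bp in lysine. Slc7a5, the light chain of a transporter of large neutral amino acids, had 381 and 508 bp and 357 and 404 bp, and Slc43a2, another neutral amino acid transporter, had 675 and 362 bp in lysine against 1 PBS block. Of 51 genes of endosome, lysosome and vesicle traffic 3 had one in PBS, Sqstm1, Atp6v1a and Vamp4. Of 46 genes of the ubiquitin system and heat shock proteins 2 had one in PBS (Cbl and Usp15) and 1 in lysine (Cbl, at another place). Of 28 antigen presentation genes 2 had one in PBS, H2-DMa and the peptide-loading factor gene Tapbp, and 1 in lysine, H2-DMa. Tapbp had 342 and 493 bp in PBS, at a −log10 q of 2.72, and no lysine region. Of 37 cytokine and growth factor receptor genes 1 had one in PBS, Il3ra, while 0 of 37 had one in lysine. In the list for Toll-like receptors and NF-kB, 0 of 32 genes had one in PBS and 2 in lysine, Irak2 and Relb. Of 29 long non-coding genes 4 had one in each list. AY036118, Rn18s-rs5 and Neat1 were in both, Malat1 in PBS alone and Dleu2 in lysine alone, and AY036118 and Rn18s-rs5 share 1 region.

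No gene of the cell type marker lists held a member in either list. Of all protein-coding genes with any region, 4.09% (PBS) and 3.06% (lysine) held one. Few marker genes had a region, so a lack of members at markers was not detectable at these numbers. Any region at all was found at 10 of 15 dendritic cell markers in PBS and 6 in lysine, and at 8 and 4 of 15 markers of macrophages and monocytes. It was found at 3 and 2 of 15 neutrophil markers, at 2 and 1 of 12 markers of mast cells and basophils, and at 2 and 2 of 15 markers of T and NK cells. Among 12 B cell markers and 11 erythroid markers 0 had a region in either list. The part that other cell types in the cultures play in the results above was not tested.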

How the data were processed

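The labels' protocols describe H3K79me2 ChIP on fixed BMDCs and paired-end sequencing, and groups came from the sample titles. Tools in the submitters' processing notes are MACS2 2.1.2, Bowtie2 2.3.4.1, Trimmomatic 0.38, cutadapt 1.18, ChIPseeker, Picard and FastQC, and the build is GRCm38, with no role given for any. The sources used here give neither the calling settings nor whether the inputs were controls. Lists were deposited per sample, without headers, and were read as MACS2 writes gapped and broad peaks. The deposited fold is a ratio of signal to local background, significance is deposited as −log10 p and −log10 q, and the deposited score follows the −log10 q. Every row of the gapped lists matched its broad list in position and values (0 differed). Fold and −log10 q were used within a list alone.

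Blocks of 1 bp, which mark region ends, were left out. Overlap means at least 1 bp. Gene ends (21900 protein-coding genes) and 32851 start sites with strand came from RefSeq tables of GRCm38.p6. A gene was counted as having a region if the region lay on it or within 1 kb. Of the 621 entries of the gene lists 619 matched. Members and lists were chosen with earlier results of these data known. Named regions rank by block number and then length: the first 8 of each list, the first 8 members in both lists, and the first 6 of each list with 1 block, and with no region, in the other. From each gene list the 2 genes with the most blocks were to be named, and others were named after their values were seen. Alternatives changed the block minimum, strength, list size, joining of blocks, overlap, gene end window and loci. Python 3.11.15, numpy 2.4.6, pandas 2.3.3, scipy 1.17.1 and matplotlib 3.10.9 were used. Overlap counts were tested on simulated data and checked against bedtools 2.31.1, with 0 differences. Some genes of the lists are not reported here.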

Additional observations from a re-analysis of the deposited data

How the results depend on the processing

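Of 132 recomputed list-wide values, 103 moved by less than their counting interval or, for counts, by less than 1.5 times, and 29 moved further. The shares at gene ends were lower with a window of 500 bp (27.8% PBS, 28.8% lysine) and higher with 2 kb (63.4%, 61.6%) or with any overlap of the window (63.7%, 61.1%). Requiring a −log10 q of at least 5 in both lists left 121 and 78 members, with 63.6% and 60.3% at gene ends, 65.3% and 78.2% facing a region, 47.8% and 59.7% of blocks matched, and 28.1% of PBS members facing 2 or more blocks. A fold of at least 4 gave 73.5% and 88.5% facing a region and 53.6% of PBS blocks matched. An equal number of regions gave 89.1% of lysine members facing a region. An overlap of at least 0.5 gave 59.3% and 72.9%, with 56.3% and 65.2% of blocks matched. With 3 or more blocks required, 11 and 7 members remained, of which 90.9% and 85.7% faced a region and 63.6% and 85.7% faced 2 or more blocks. The cause of these shifts beyond the fewer regions compared was not tested. Start sites in blocks stayed between 86.5% and 87.3% in PBS and between 87.0% and 89.0% in lysine, under alternatives chosen after seeing the data. Without hard-to-map loci, also chosen so, 315 and 223 members remained, the list-wide values stayed within the same limits, and 6 of 39 named regions were left out. Of the 39, 12 passed the −log10 q minimum of 5. No paired analysis was possible because each treatment has 1 library. Unknown depth limits any reading of a missing region or block.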
